A study of Homo sapiens with 12 samples.

Results

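The genes described here are 10 members of the bypass receptor network of lung cancer, namely the receptor tyrosine kinases AXL, MERTK, TYRO3, MET, FGFR1, FGFR2, FGFR3, EPHA2 and PDGFRB, and GAS6, a ligand of the first of these. They were chosen by symbol, as the probe sets whose platform annotation names one of them, and all 10 were found once each among 21448 probe sets, 17709 of which carry a gene name. The values came from 12 arrays in 4 groups of 3: PC-9 cells with SK-216, tolerant PC-9 cells, H1975 cells with SK-216, and tolerant H1975 cells. PC-9 and H1975 are human lung adenocarcinoma lines that carry mutant, constitutively active epidermal growth factor receptor (EGFR), and every group had been exposed to 0.5 µM osimertinib, an EGFR kinase inhibitor. Tolerant cells were those alive on day 8, after 1 week of the drug, and the SK-216 groups then received 100 µM of that compound for 48 h. In the SK-216 samples the source name speaks of naive cells where the title and description speak of tolerant ones. The labels also leave unsaid whether osimertinib stayed on during SK-216, and the comparison holds the compound and the added time together. Cells without osimertinib were not analysed here, so that nothing below bears on how tolerance itself set these levels.

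Receptor tyrosine kinases span the plasma membrane, pair up when a ligand binds, and phosphorylate their own tails, to which adaptors of the RAS-ERK and PI3K-AKT pathways attach. Because these pathways are shared with EGFR, another active receptor can carry the signal while EGFR is blocked, which is called bypass signalling. MET and AXL are the best known such receptors in EGFR-mutant lung cancer. The arrays measured RNA, and neither receptor protein nor phosphorylation.

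Levels are given on the log2 scale of the array, on which 1 unit is a doubling of signal, and each gene was compared only with itself across groups. In such bulk RNA, fewer cells with a transcript and less of it per cell cannot be told apart. The level of unexpressed genes was described with 349 probe sets of olfactory receptors, and a group mean at or below their 95th percentile, 5.05, is called within the dim range. Keratin 8 and other epithelial markers were bright in both lines, 7 to 8 of 10 such markers lying above the dim range in each group, whereas the lung secretory marker NAPSA lay within it in all 4 groups. The lung marker NKX2-1 was above it only in tolerant H1975 cells, at 5.10. SFTPB, also a lung marker, was above it only in tolerant PC-9 cells, at 5.19. Of markers of other cell types, 3 of 7 for fibroblasts and pericytes (COL1A1, COL1A2 and ACTA2) and 3 of 5 for leukocytes (CD3E, CD14 and CD68) were above the dim range in every group. Group means were 6.25 to 8.95 for COL1A1, 7.90 to 9.02 for COL1A2, 6.57 to 6.94 for ACTA2, 5.13 to 5.54 for CD3E, 5.79 to 6.75 for CD14 and 11.60 to 12.26 for CD68, also a lysosomal protein of other cells. Of 5 endothelial markers 2 were above it in PC-9 cells with SK-216, 3 in tolerant PC-9 cells, 1 in H1975 cells with SK-216 and 0 in tolerant H1975 cells, with CDH5 at 7.10 and 7.47 in PC-9 cells with SK-216 and tolerant PC-9 cells. DCN and LUM for fibroblasts, PECAM1 for endothelium and PTPRC for leukocytes lay within the dim range in every group. Arrays of a group correlated at r of 0.9934 to 0.9953, and no array stood apart. Nothing in the labels says that replicates were separate cultures, so the p-values measure the spread between these arrays.

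Between the lines, which are 1 cell line each, several receptors differed. In tolerant PC-9 cells against tolerant H1975 cells, 4 of the 10 genes were higher (AXL, GAS6, MET and MERTK), 2 were lower (FGFR1 and PDGFRB), and 4 did not pass, at a Benjamini-Hochberg adjusted p below 0.05 in limma. Across all probe sets 44.0% passed in this comparison, 21.3% higher and 22.7% lower, so the count of members is near that of any set of genes, and what follows is about which genes differed and by how much. The median difference of the 10 was 0.25, against 0.02 over all probe sets, and the median size without regard to sign was 0.74 against 0.37. The arrays of the lines did not overlap for 7 of the 10 genes in tolerant cells, against 50.2% of all probe sets, and for 4 with SK-216, against 50.6%.

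AXL, the receptor of the TAM family most often tied to EGFR inhibitor resistance, showed the widest gap. On the log2 scale its level was 13.18, 13.25 and 13.18 in PC-9 cells with SK-216 and 13.93, 13.14 and 13.45 in tolerant PC-9 cells, against 10.02, 9.53 and 9.94 in H1975 cells with SK-216 and 9.90, 9.89 and 9.62 in tolerant H1975 cells. All 6 PC-9 arrays were above all 6 H1975 arrays, and the groups of a line overlapped each other. Tolerant PC-9 cells were higher by 3.70 ± 0.15 (difference ± standard error of the fit, n = 3 each), a ratio of 13 with a 95% interval of 10.4 to 16.3 (adjusted p = 6.27e-16). The PC-9 excess was 3.37 ± 0.15 among the SK-216 arrays, which share no array with the tolerant ones.

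GAS6, the vitamin K-dependent protein that bridges TAM receptors to phosphatidylserine and is their activating ligand, was higher in PC-9 as well. Its level was 9.73, 9.57 and 9.65 in PC-9 cells with SK-216 and 9.49, 9.58 and 9.42 in tolerant PC-9 cells, against 7.49, 7.11 and 6.71 in H1975 cells with SK-216 and 6.95, 7.49 and 7.12 in tolerant H1975 cells. Again no PC-9 array reached down to an H1975 array. The difference between tolerant cells was 2.31 ± 0.19, a ratio of 4.96 with an interval of 3.79 to 6.49 (adjusted p = 1.74e-10), and it was 2.55 ± 0.19 with SK-216. The receptor AXL and its ligand were thus both brighter in the same line.

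MET, the receptor for hepatocyte growth factor, was bright in both lines and higher in PC-9. The levels were 14.75, 14.58 and 14.71 in PC-9 cells with SK-216 and 14.65, 14.57 and 14.61 in tolerant PC-9 cells, against 13.85, 13.75 and 13.91 in H1975 cells with SK-216 and 13.71, 13.72 and 13.54 in tolerant H1975 cells. Its replicates lay within 0.20 of each other in each group, and the lines did not overlap. Tolerant PC-9 cells exceeded tolerant H1975 cells by 0.95 ± 0.08, a ratio of 1.94 with an interval of 1.72 to 2.18 (adjusted p = 4.57e-10).

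The start regions of these genes are shown because they are the 3 members that were higher in PC-9 with and without SK-216. They are the 250 bases before the start in RefSeq, build GRCh38.p14, written in the direction of the gene. For AXL, which has 2 listed starts, the outer one is given. Capitals mark GC boxes (GGGCGG on either strand), the sites of SP-family factors.
AXL: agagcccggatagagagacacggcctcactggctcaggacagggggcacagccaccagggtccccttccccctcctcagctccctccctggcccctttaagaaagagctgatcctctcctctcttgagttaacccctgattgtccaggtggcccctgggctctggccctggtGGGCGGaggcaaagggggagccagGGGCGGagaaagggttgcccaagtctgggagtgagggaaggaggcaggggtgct
GAS6: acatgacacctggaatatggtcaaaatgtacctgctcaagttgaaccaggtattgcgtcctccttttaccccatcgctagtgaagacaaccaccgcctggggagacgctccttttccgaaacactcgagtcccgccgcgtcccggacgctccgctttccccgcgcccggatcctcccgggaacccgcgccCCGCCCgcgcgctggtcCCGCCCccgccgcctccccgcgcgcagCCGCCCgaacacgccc
MET: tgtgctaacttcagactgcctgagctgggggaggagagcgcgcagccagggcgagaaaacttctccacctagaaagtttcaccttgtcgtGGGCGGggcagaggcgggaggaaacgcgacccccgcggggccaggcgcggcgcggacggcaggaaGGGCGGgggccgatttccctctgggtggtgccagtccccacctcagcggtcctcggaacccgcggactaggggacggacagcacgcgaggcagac
The regions are chr19:41218973-41219222 on the plus strand for AXL, chr13:113864077-113864326 on the minus strand for GAS6, and chr7:116671946-116672195 on the plus strand for MET. They held 2 GC boxes in AXL, 3 in GAS6 and 2 in MET, with no overlap between boxes, and 64.4%, 66.8% and 68.4% of their bases were G or C. A GC box stands in 42.6% of all 35116 such windows. The AP-1 motif TGANTCA, found in 6.57% of the windows, and the TEAD motif GGAATG, found in 11.9%, were searched on both strands and are not among the letters of the 3 regions. These matches describe the letters only.

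The TAM family has a pair of further receptors. MERTK, which in phagocytes mediates uptake of dying cells, had levels of 6.71, 5.72 and 6.53 in PC-9 cells with SK-216 and 6.04, 6.09 and 6.57 in tolerant PC-9 cells, against 5.60, 6.16 and 5.55 in H1975 cells with SK-216 and 5.60, 5.25 and 5.50 in tolerant H1975 cells. The tolerant groups did not overlap, while those with SK-216 did. It was higher in tolerant PC-9 cells by 0.78 ± 0.25 (adjusted p = 0.0137). That call ended without tolerant H1975 array 2 (0.68, adjusted p = 0.0623) and without tolerant PC-9 array 3 (0.62, adjusted p = 0.085), and the SK-216 arrays gave 0.55 ± 0.25 (adjusted p = 0.0865). TYRO3, the third TAM receptor, lay just above the dim range, at 5.82, 5.40 and 5.24 in PC-9 cells with SK-216 and 5.96, 5.94 and 5.89 in tolerant PC-9 cells, against 5.82, 5.90 and 5.33 in H1975 cells with SK-216 and 5.50, 5.43 and 5.57 in tolerant H1975 cells. The tolerant arrays of the lines did not overlap, yet the difference of 0.43 ± 0.22 did not pass (adjusted p = 0.119), and it was -0.20 ± 0.22 with SK-216.

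FGFR1 and PDGFRB went the other way. FGFR1, a receptor for fibroblast growth factors with a known part in mesenchymal-like lung cancer cells, had levels of 5.19, 5.20 and 4.61 in PC-9 cells with SK-216 and 5.10, 4.80 and 5.14 in tolerant PC-9 cells, against 5.76, 5.90 and 5.79 in H1975 cells with SK-216 and 5.96, 6.10 and 6.00 in tolerant H1975 cells. All PC-9 arrays were below all H1975 arrays. Both PC-9 means, 5.00 with SK-216 and 5.01 in tolerant cells, were within the dim range, so the difference has only a lower bound. Here and below such a bound sets the bright group's mean against the dim group's, each dim array being raised to 5.05 where it lies under it. It allows for the dim range but not for the spread between arrays. FGFR1 was at least 1.9-fold lower in tolerant PC-9 cells (adjusted p = 0.000319) and at least 1.59-fold lower in PC-9 cells with SK-216 (adjusted p = 0.0025) than in the matching H1975 cells.

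PDGFRB, the receptor for PDGF-B and PDGF-D and a marker of pericytes and fibroblasts, had levels of 5.63, 5.70 and 4.96 in PC-9 cells with SK-216 and 5.45, 5.20 and 5.23 in tolerant PC-9 cells, against 5.56, 6.07 and 5.48 in H1975 cells with SK-216 and 5.78, 6.33 and 5.86 in tolerant H1975 cells. Tolerant arrays did not overlap between lines and SK-216 arrays did. The tolerant difference was -0.70 ± 0.24 (adjusted p = 0.0201), against -0.27 ± 0.24 between the SK-216 groups (adjusted p = 0.404). Without tolerant H1975 array 2 it was -0.53 (adjusted p = 0.124), without tolerant PC-9 array 2 -0.65 (adjusted p = 0.0601), and without tolerant PC-9 array 3 -0.67 (adjusted p = 0.0549), none of which passed. Of 7 fibroblast and pericyte markers 0 were higher and 2 lower in tolerant PC-9 cells, against 21.3% and 22.7% of all probe sets, and 5 did not pass. COL1A1, a collagen chain, was at -2.69 ± 0.21. The summed linear signal of the 7, in which the brightest weigh most, was 8.77 to 9.11 on the log2 scale in tolerant PC-9 cells. In tolerant H1975 cells it was 10.11 to 10.33. The part of these genes in the PDGFRB difference was not tested.

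The last 3 receptors showed no difference between lines that passed. EPHA2, an ephrin receptor often abundant in carcinomas, was at 7.38, 7.14 and 7.33 in PC-9 cells with SK-216 and 7.85, 7.74 and 6.78 in tolerant PC-9 cells, against 7.32, 7.52 and 7.21 in H1975 cells with SK-216 and 7.27, 7.52 and 7.42 in tolerant H1975 cells. The 4 groups overlapped, with tolerant PC-9 array 3 the lowest and arrays 1 and 2 of that group the highest of all. The tolerant difference of 0.05 ± 0.23 has a 95% interval of -0.41 to 0.52. FGFR2, whose epithelial form binds FGF7 and FGF10, was within the dim range in every group, between 4.04 and 4.81 over the 12 arrays. FGFR3 was within it too, between 3.08 and 3.76. Their tolerant differences were 0.07 ± 0.22 and -0.05 ± 0.18, and for genes at this level these arrays bear little on a difference.

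**Figure D1:**
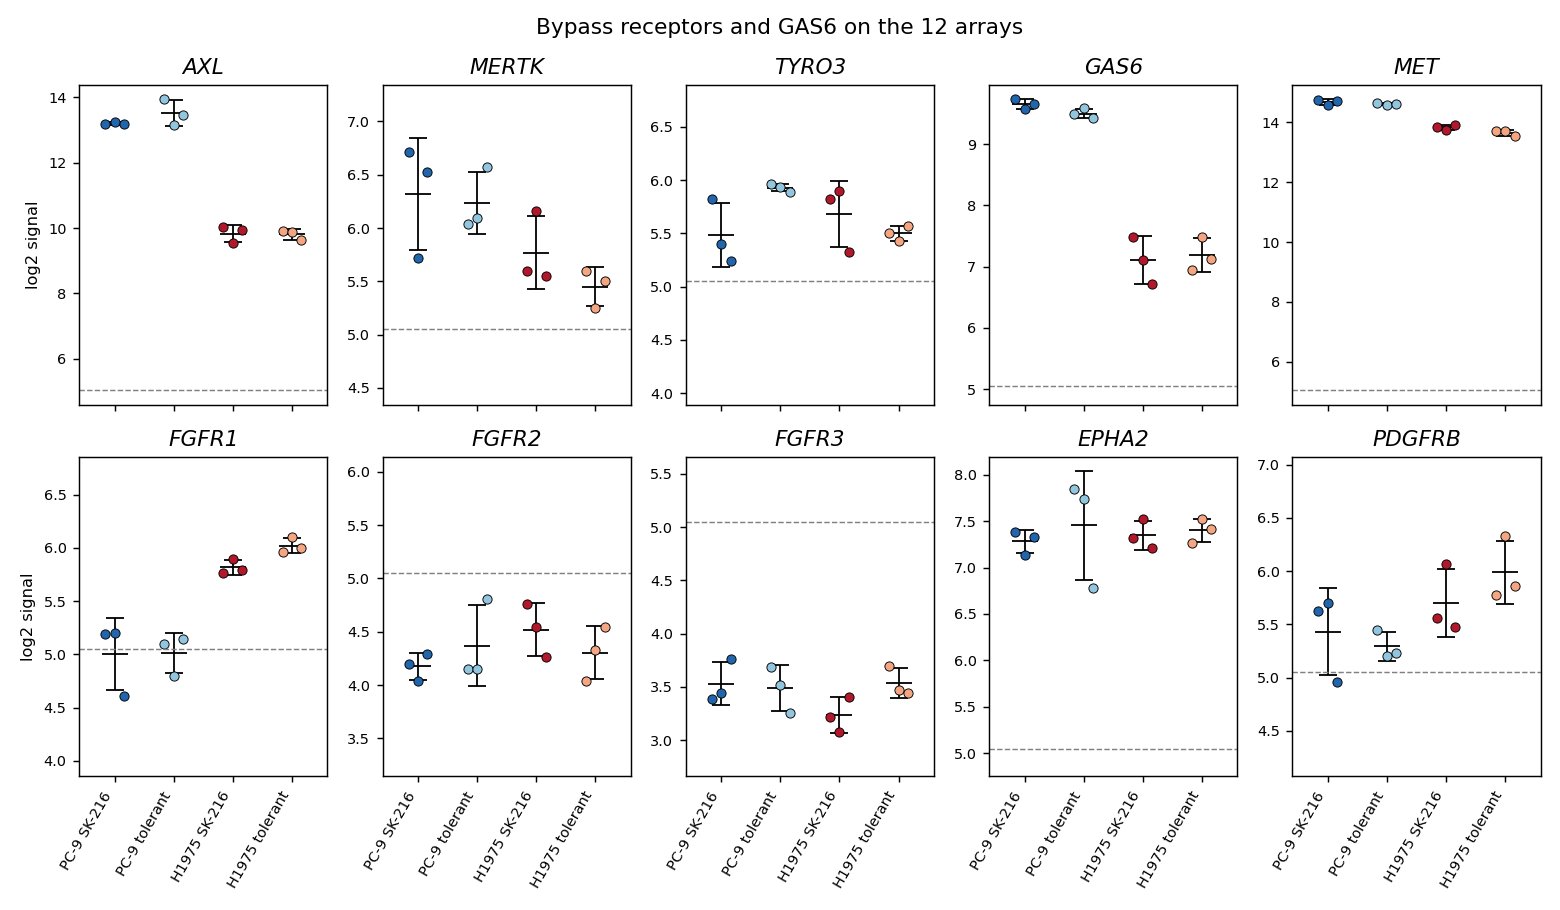
Log2 signal (vertical axes, own scale per gene) of the 10 genes on each array, by group (horizontal axis). Points are arrays, bars the mean ± SD (n = 3), and the dashed line is the limit of the dim range, 5.05. AXL, GAS6 and MET are higher on all PC-9 arrays, FGFR1 is lower on all of them, and FGFR2 and FGFR3 lie below the line on every array.

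**Figure D2:**
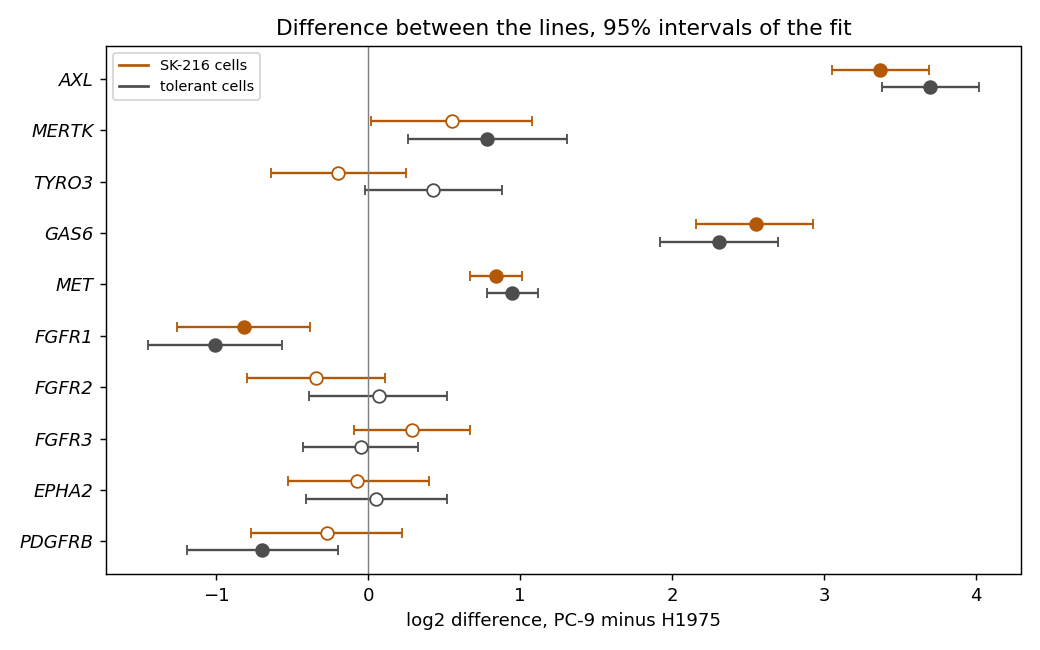
Difference between lines, PC-9 minus H1975, in log2 signal (horizontal axis) for each gene (vertical axis), with 95% intervals, for cells with SK-216 and for tolerant cells. Filled points passed at an adjusted p below 0.05: 4 genes among SK-216 arrays and 6 among tolerant arrays. The FGFR1 points are fitted values against PC-9 levels within the dim range.

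With SK-216, the lines differed in 4 of the 10 genes, 3 higher in PC-9 and 1 lower (AXL, GAS6, MET and FGFR1), while 43.9% of all probe sets passed. MERTK and PDGFRB passed among tolerant arrays and not among SK-216 arrays. The test of the change in the gap is the difference of the SK-216 changes given below, and it passed for neither gene. Most epithelial markers also differed between the lines. Of 10, 7 were higher and 1 lower in tolerant PC-9 cells, against 21.3% and 22.7% of all probe sets, and 2 did not pass. CDH1, the epithelial cadherin, was at 4.37 ± 0.13. The summed linear signal, in which the brightest markers weigh most, was 18.30 to 18.43 on the log2 scale in tolerant PC-9 cells. In tolerant H1975 cells it was 16.91 to 16.99. The part of these markers in the differences of the receptors was not tested.

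SK-216 itself moved none of the 10 genes past the test in either line. In H1975 cells 0 of 10 passed in limma, where 3.80% of all probe sets did, and 1 of 10, MET, had an unadjusted p below 0.05, against 14.2% of all probe sets. In PC-9 cells 0 of 10 passed, where 0.443% of all probe sets did, and 0 of 10 had an unadjusted p below 0.05, against 10.9%. Changes of the 10 genes ran from -0.30 to 0.32 in H1975, with 5 above 0 and 5 below, and from -0.44 to 0.15 in PC-9, again with 5 on each side. The median size of a change was 0.19 in H1975 against 0.16 over all probe sets, and 0.15 in PC-9 against 0.15 over all.

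The intervals say how large a change the arrays leave room for. For MET, the most precisely measured, the change was 0.18 ± 0.08 in H1975 (interval 0.01 to 0.35, adjusted p = 0.309) and 0.07 ± 0.08 in PC-9 (interval -0.10 to 0.24). Its 3 H1975 arrays with SK-216 lay above the 3 tolerant ones, 13.75 to 13.91 against 13.54 to 13.72. AXL was at 0.03 ± 0.15 in H1975 (interval -0.29 to 0.35) and at -0.30 ± 0.15 in PC-9 (interval -0.62 to 0.02, adjusted p = 0.485), where tolerant array 1 was the brightest. Without that array the AXL value in PC-9 was -0.09 (adjusted p = 0.903). For GAS6 the changes were -0.08 ± 0.19 in H1975 and 0.15 ± 0.19 in PC-9. At the outer ends of all 20 intervals a gene could have fallen to 0.539 of its tolerant level (TYRO3 in PC-9) or risen to 1.8 times of it (MERTK in H1975).

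The other receptors follow. TYRO3 had the largest value in PC-9, -0.44 ± 0.22 (adjusted p = 0.461), and its SK-216 arrays, 5.24 to 5.82, lay below the tolerant ones, 5.89 to 5.96. In H1975 it was at 0.18 ± 0.22. MERTK had the largest value in H1975, 0.32 ± 0.25 (adjusted p = 0.65), from overlapping arrays, and 0.09 ± 0.25 in PC-9. PDGFRB was at -0.29 ± 0.24 in H1975 and 0.14 ± 0.24 in PC-9, FGFR1 at -0.20 ± 0.21 and -0.01 ± 0.21, and EPHA2 at -0.05 ± 0.23 and -0.17 ± 0.23. FGFR3 was at -0.30 ± 0.18 in H1975 and 0.04 ± 0.18 in PC-9, and FGFR2 at 0.22 ± 0.22 and -0.19 ± 0.22, from levels within the dim range. Arrays of SK-216 and tolerant cells did not overlap for 3 of the 10 genes in H1975 (MET, FGFR1 and FGFR3), against 18.5% of all probe sets, and for 1 in PC-9 (TYRO3), against 15.0%. Some cell identity markers also moved with SK-216 in H1975, where 3.80% of all probe sets were called. Of 10 epithelial markers 2 rose and 2 fell. CDH1 was at -1.55 ± 0.13, while the means of EPCAM and KRT7 were higher with SK-216. They were 8.95 for EPCAM and 15.01 for KRT7, against 8.18 and 14.68 in tolerant H1975 cells. Of 7 fibroblast and pericyte markers 1 fell, COL1A1, at -0.96 ± 0.21. In PC-9 0 of these 17 passed in limma, against 0.443% of all probe sets, a share at which few sets of this size would hold a call. Of the 5 endothelial and 5 leukocyte markers 0 passed in either line. The part of these markers in the values above was not tested.

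For no member did the test find a different change in the lines. Of the 10 differences, taken as PC-9 minus H1975, 0 passed in limma, against 1.42% of all probe sets, and 0 had an unadjusted p below 0.05, against 12.7%. The largest was that of TYRO3, -0.63 ± 0.31 (adjusted p = 0.398), followed by PDGFRB at 0.42 ± 0.34 and FGFR2 at -0.41 ± 0.31. For MERTK it was -0.23 ± 0.36, and for AXL -0.33 ± 0.22. The interval for AXL, -0.78 to 0.12, is wide enough that an unequal response cannot be told apart from an equal one.

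**Figure D3:**
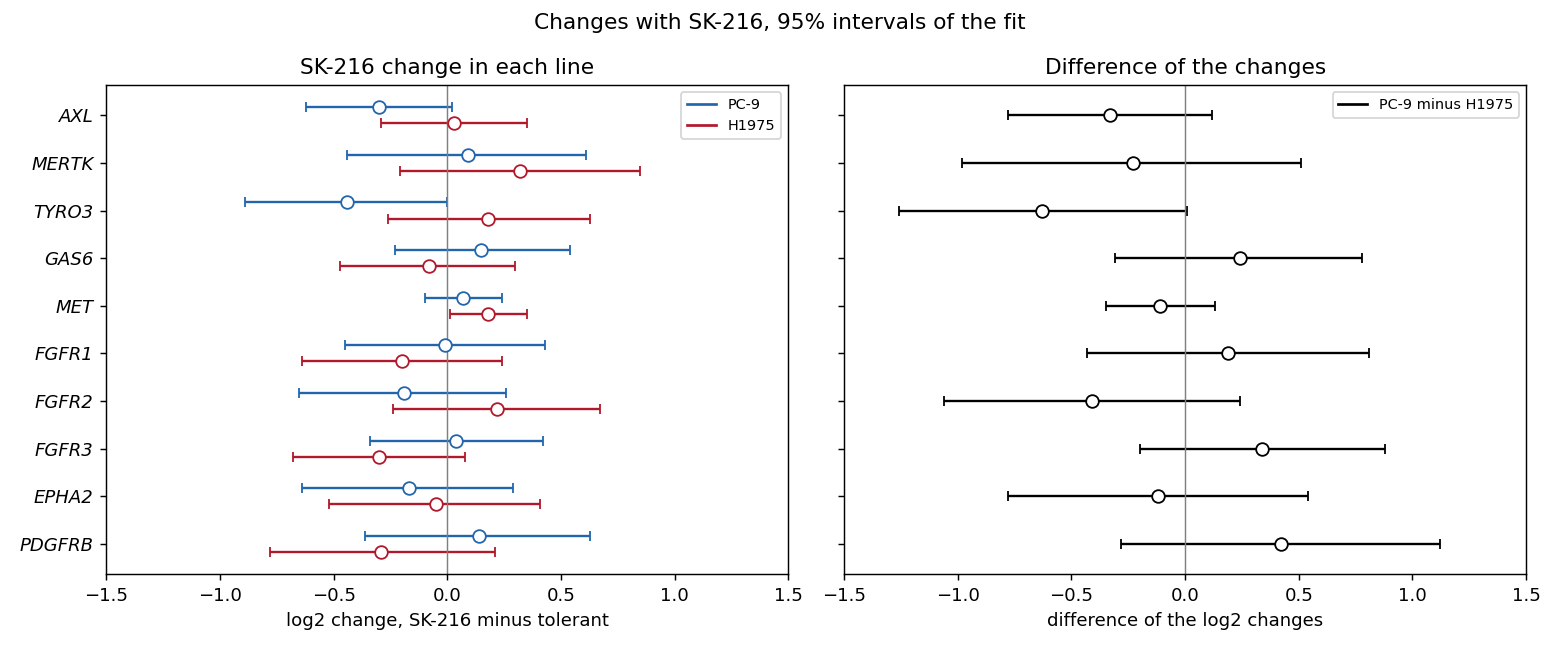
Left, change with SK-216 (SK-216 minus tolerant, log2 signal, horizontal axis) for each gene (vertical axis) in PC-9 and H1975 with 95% intervals. Right, the H1975 change subtracted from the PC-9 change. All points are open, since none passed, and the left-hand values lie between -0.44 and 0.32.

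Of 22 measured ligands of these receptors, 4 were higher and 4 lower in tolerant PC-9 cells than in tolerant H1975 cells, where 21.3% of all probe sets were higher and 22.7% lower. With SK-216, 1 fell in H1975, against 3.80% of all probe sets called, and 0 passed in PC-9, against 0.443%. Their median change was -0.05 in H1975 and 0.03 in PC-9, against 0.01 and 0.00 over all probe sets. FGF2, basic fibroblast growth factor, was at 11.16, 10.69 and 10.66 in PC-9 cells with SK-216 and 11.15, 10.77 and 11.00 in tolerant PC-9 cells, against 4.74, 3.89 and 4.01 in H1975 cells with SK-216 and 4.63, 4.60 and 4.12 in tolerant H1975 cells. H1975 was within the dim range on each of its arrays. By its group means FGF2 was at least 60.7-fold higher in tolerant PC-9 cells than in tolerant H1975 cells (adjusted p = 1.17e-17). The line with the brighter FGF2 was the line with the dimmer FGFR1, but not with dimmer FGF receptors in general. In tolerant PC-9 cells FGFR4 was higher by 0.58 ± 0.16 (adjusted p = 0.00498). The related FGFRL1 was higher by 0.68 ± 0.20 (adjusted p = 0.00713).

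PDGFRB passed as lower in PC-9 among tolerant arrays and not among SK-216 arrays, and its PC-9 means lay close to the dim range. PDGFB, which encodes the B chain that activates this receptor, was brighter on all PC-9 arrays. Its level was 10.52, 10.65 and 10.49 in PC-9 cells with SK-216 and 11.10, 10.67 and 10.59 in tolerant PC-9 cells, against 6.49, 6.70 and 6.07 in H1975 cells with SK-216 and 5.99, 6.29 and 5.82 in tolerant H1975 cells. Tolerant PC-9 cells were higher by 4.75 ± 0.19 (adjusted p = 1.74e-16), and PDGFD, the other ligand of PDGFRB, by 3.89 ± 0.17. HGF, the ligand of MET, was within the dim range in all 4 groups, between 3.00 and 4.30 over the 12 arrays. EFNA1, an ephrin that binds EPHA2, was lower in tolerant PC-9 cells by a change of -1.05 ± 0.16, and EFNA5 was higher by 1.85 ± 0.12.

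PROS1, protein S, which binds TYRO3 and MERTK, was the ligand that fell with SK-216. Its level was 10.29, 10.45 and 10.28 in H1975 cells with SK-216, against 10.91, 10.92 and 11.03 in tolerant H1975 cells. The groups did not overlap, and the change was -0.61 ± 0.14, a ratio of 0.654 (adjusted p = 0.0133). In PC-9 it was at 8.53, 8.28 and 8.63 with SK-216, against 8.56, 8.43 and 8.14 in tolerant cells, a change of 0.10 ± 0.14. The gap between the responses of the lines, 0.72 ± 0.20 as PC-9 minus H1975, did not pass (adjusted p = 0.0847). Without H1975 array 1 or 3 with SK-216, or without tolerant H1975 array 3, the fall was no longer called, at adjusted p = 0.0595, 0.0602 and 0.0688. Between tolerant cells PROS1 was lower in PC-9 by a change of -2.58 ± 0.14, the reverse of GAS6.

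**Figure D4:**
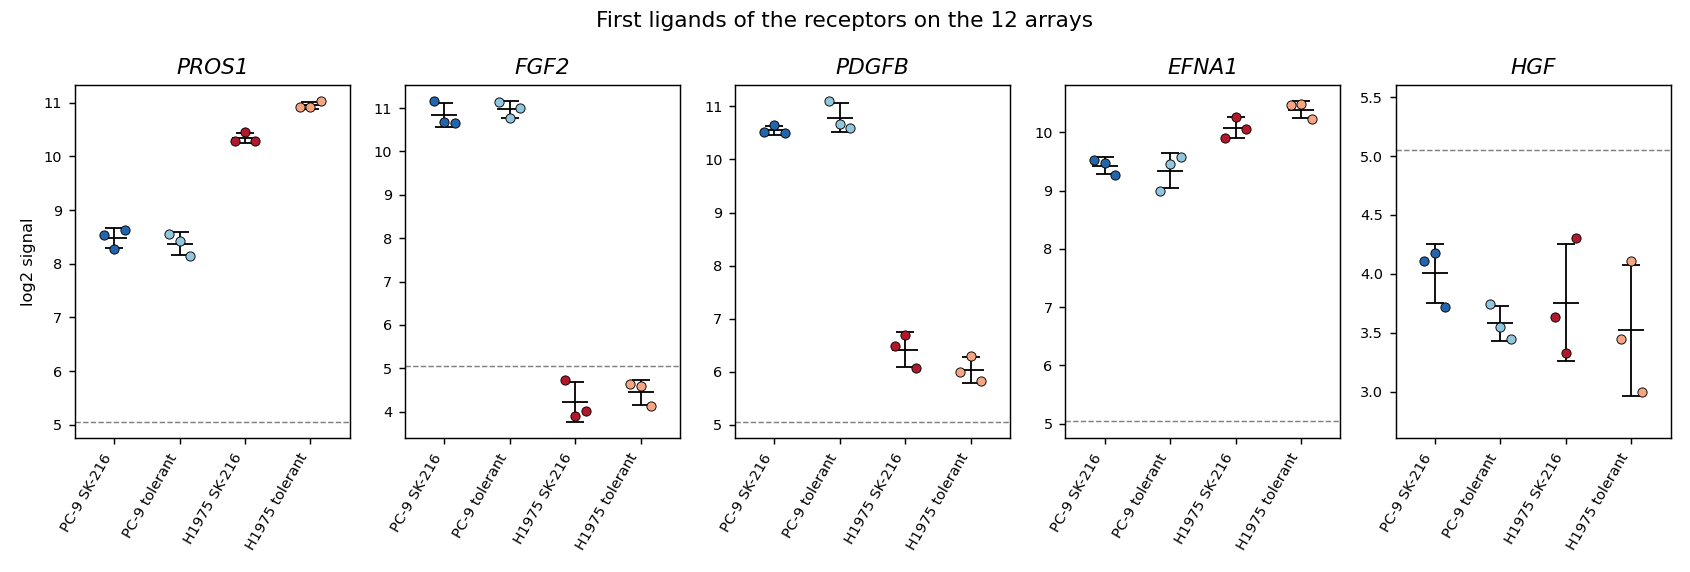
Log2 signal (vertical axes, own scale per gene) of PROS1, FGF2, PDGFB, EFNA1 and HGF on each array, by group (horizontal axis). Points are arrays, bars the mean ± SD (n = 3), and the dashed line is the limit of the dim range. PROS1 in H1975 is 10.34 on average with SK-216 and 10.95 in tolerant cells, and HGF lies below the line on all 12 arrays.

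Among 34 other genes of receptor tyrosine kinase families, the related FGFRL1 included, 18 were within the dim range in all 4 groups. The other 16 were above it in at least 1. Between tolerant lines 9 were higher and 4 lower in PC-9, against 44.0% of all probe sets in either direction. DDR1, a collagen receptor, was higher by 3.00 ± 0.11. EPHA4, an ephrin receptor within the dim range in H1975, was by its group means at least 10.8-fold higher in tolerant PC-9 cells (adjusted p = 2.79e-11). DDR2, also a collagen receptor, differed by -2.74 ± 0.20. With SK-216, 1 of the 34 fell in H1975 and 0 passed in PC-9, against 3.80% and 0.443% of all probe sets. It was PTK7, a pseudokinase of Wnt signalling, at 7.59, 7.83 and 7.61 in H1975 cells with SK-216 against 8.53, 8.17 and 8.47 in tolerant H1975 cells, a change of -0.71 ± 0.17 (adjusted p = 0.014). Its call ended without H1975 arrays 1 or 3 with SK-216 or without tolerant H1975 arrays 1 or 3, with adjusted p between 0.0573 and 0.0838.

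Coreceptors and enzymes that activate ligands or shed receptors gave 4 of the 7 calls with SK-216 among the pathway genes. Of 21 measured, 1 rose and 2 fell in H1975, against 3.80% of all probe sets called, and 1 rose in PC-9, against 0.443%. NRP2, a neuropilin that serves as a coreceptor for vascular growth factors and semaphorins, was at 6.49, 6.23 and 6.71 in H1975 cells with SK-216, against 5.70, 4.52 and 5.40 in tolerant H1975 cells. The groups did not overlap, the change was 1.27 ± 0.26 (adjusted p = 0.00351), and it was called in all 12 fits that left out 1 array. The tolerant mean, 5.21, lay close to the limit of the dim range, with array 2 under it. Without that array the change was 0.93. NRP1, the related neuropilin, fell, at 10.76, 11.10 and 10.93 against 11.58, 11.51 and 11.64, a change of -0.65 ± 0.16 (adjusted p = 0.017). In PC-9 the NRP1 change was -0.40 ± 0.16, which did not pass (adjusted p = 0.338). The difference of the 2 changes, 0.25 ± 0.22 as PC-9 minus H1975, did not pass either (adjusted p = 0.702). For NRP2 the PC-9 change was 0.02 ± 0.26.

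ADAM10, a protease that sheds the ectodomains of membrane receptors and ephrins, was at 13.77, 13.79 and 13.86 in H1975 cells with SK-216, against 14.28, 14.13 and 14.07 in tolerant H1975 cells. It fell, with a change of -0.35 ± 0.08 (adjusted p = 0.0102). Without the variance trend neither ADAM10 (adjusted p = 0.184) nor NRP1 (adjusted p = 0.0754) was called. Without H1975 array 1 with SK-216 ADAM10 had adjusted p = 0.052, and without tolerant H1975 array 1 it had 0.089. For NRP1 the call ended without H1975 arrays 1 or 3 with SK-216 or without tolerant H1975 arrays 1 or 3, with adjusted p between 0.0569 and 0.106. In PC-9, CD44, a hyaluronan receptor whose splice forms act as coreceptors of MET, was at 13.75, 13.85 and 13.65 with SK-216, against 13.38, 13.20 and 13.23 in tolerant cells. Its rise was 0.48 ± 0.10 (adjusted p = 0.0229). It was no longer called without the variance trend (adjusted p = 0.239), nor without PC-9 arrays 1 or 2 with SK-216 or without tolerant PC-9 arrays 2 or 3, where adjusted p lay between 0.0784 and 0.176.

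Between tolerant lines, 11 of these 21 genes were higher and 3 lower in PC-9, against 21.3% and 22.7% of all probe sets. ST14, matriptase, a protease that activates the HGF precursor, was within the dim range in tolerant H1975 cells. By its group means ST14 was at least 485-fold higher in tolerant PC-9 cells (adjusted p = 1.34e-19). Its inhibitors SPINT1 and SPINT2, which also block HGF activation, were higher by 6.66 ± 0.16 and 4.47 ± 0.17.

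Adaptors and enzymes just downstream of the receptors gave a single call with SK-216. Of 24 measured, 1 fell in H1975 and 0 passed in PC-9, against 3.80% and 0.443% of all probe sets. VAV3, a guanine nucleotide exchange factor, was at 6.49, 5.92 and 5.79 in H1975 cells with SK-216, against 6.88, 6.92 and 6.94 in tolerant H1975 cells, a change of -0.85 ± 0.23 (adjusted p = 0.0338). The call ended without H1975 arrays 2 or 3 with SK-216 or any of the 3 tolerant H1975 arrays, with adjusted p between 0.0922 and 0.168. In tolerant PC-9 cells 14 of the 24 were higher and 2 lower than in tolerant H1975 cells, against 21.3% and 22.7% of all probe sets, with PTK2, focal adhesion kinase, at 2.38 ± 0.13, FYN, a kinase of the SRC family, at 2.49 ± 0.15, and GRB10, an adaptor, at -1.99 ± 0.14.

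The last list held genes that take receptors off the surface, reverse their phosphorylation or dampen the signal below them. It gave no call with SK-216, 0 of 22 in either line in limma, against 3.80% of all probe sets in H1975 and 0.443% in PC-9. The lowest adjusted p was 0.167 in H1975 and 0.324 in PC-9. Between tolerant lines 10 were higher and 5 lower in PC-9, against 21.3% and 22.7% of all probe sets. LRIG1, which promotes degradation of EGFR and MET, was at 4.88, 5.60 and 5.44 in PC-9 cells with SK-216 and 5.53, 5.35 and 5.08 in tolerant PC-9 cells, against 11.64, 11.50 and 11.56 in H1975 cells with SK-216 and 11.89, 11.78 and 11.77 in tolerant H1975 cells. The tolerant difference was -6.49 ± 0.18 (adjusted p = 2e-19). LRIG3, of the same family, differed by -2.84 ± 0.19, and PTPRF, a receptor phosphatase, by 1.45 ± 0.12.

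Over the 5 groups of pathway genes together, 123 probe sets were measured. With SK-216, 1 rose and 5 fell in H1975, or 4.88% against 3.80% of all probe sets, and 1 rose in PC-9, or 0.813% against 0.443%. Between tolerant lines 48 were higher and 18 lower in PC-9, or 53.7%, against 44.0% of all probe sets, 21.3% higher and 22.7% lower. In the difference of the SK-216 changes 0 of the 123 passed in limma, against 1.42% of all probe sets.

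The genes whose pattern over the 12 arrays was most like that of AXL were EXPH5, FNBP1L and SKIL, with root mean square differences of 0.197, 0.211 and 0.219 after each gene was centred on its mean, among 1841 probe sets that varied enough to be compared. For MET they were DNAJC10, CNOT11 and JOSD1, at 0.0712, 0.0753 and 0.0755 among 13030. These patterns rest on the step between the lines, which the arrays of a line share.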

How the data were processed

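RNA, 250 ng per array, was measured on a whole-transcript array. The deposited values are log2 signals per probe set made by the authors. Per the submitters' processing notes the software was Transcriptome Analysis Console. Its version, the summarisation and normalization steps and the build were not found in the labels or the file header. The log2 values ran from 2.19 to 18.61, with array medians of 6.56 to 6.62, and were not normalized again. Arrays give no read depth, and their number limits the precision. Members were matched by the gene symbol of the platform annotation. Other genes were named by the RefSeq symbol of their gene identifier, or by the platform symbol where none matched.

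One model with 4 group means over the 12 arrays was estimated in limma 3.58.1 (R 4.3.3), using eBayes with a variance trend and 8 residual degrees of freedom. Tests were two-sided and p-values were adjusted by Benjamini-Hochberg over all 21448 probe sets, with a call below 0.05. No probe set was filtered out. Intervals are 95% and unadjusted. The fit was tested on simulated data. Members, lists and the olfactory reference were chosen with earlier results of these data known. Named genes were the 10 members, up to 4 called genes per list and SK-216 comparison, up to 3 for the lines, 5 first ligands, and the 3 patterns nearest to MET and AXL, used because no member passed for SK-216. EFNA5, COL1A1, CDH1, CD68, FGFR4 and FGFRL1 were named after their values were seen. Replicate numbers are shared by the labels of the groups, but the deviations of same-numbered arrays correlated at -0.09 to 0.03 and do not pair them. RefSeq start regions matched 9 of the 10 members by symbol (not FGFR1), and 3 are shown. Figures were drawn with matplotlib.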

Additional observations from a re-analysis of the deposited data

How the results depend on the processing

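For the 10 members, 0 calls for SK-216 in H1975, in PC-9 and for the difference held in every alternative run: no variance trend, robust eBayes, each line alone (within lines), a replicate block within lines or over both, quantile normalization, centring, array weights, no dim probe sets, a threshold of 0.01, and leaving out each of 12 arrays. Among these uncalled values the sign differed from the main one in 7 of 218, 11 of 218 and 3 of 208 cases. For tolerant lines AXL, GAS6, MET and FGFR1 were called in all 21 alternatives, MERTK in 17 and PDGFRB in 16. The member count of 6 was 4 at a threshold of 0.01, 4 among SK-216 arrays (chosen after seeing the data), 6 with a replicate block over both lines, and 4 to 6 with 1 array left out. The labels give no pairing beyond the replicate number, and with the block 0 of 24 adaptors were called in H1975 instead of 1, while CD44 in PC-9 had adjusted p = 0.0507 with a replicate block within each line. Without the variance trend 1 of 21 coreceptors was called in H1975 instead of 3, and 0 in PC-9 instead of 1. The cause was not tested. Leaving out 1 array gave 0 to 2 calls for other receptors, 0 to 1 for ligands, 1 to 4 for coreceptors and 0 to 1 for adaptors in H1975, 0 to 1 for coreceptors in PC-9, and 0 to 1 for the difference in coreceptors. Other list counts stayed within 1.5 times. Quantile normalization and centring moved the median change of all probe sets to between -0.02 and 0.02. FGFR2 and FGFR3 were themselves left out with the dim probe sets, so that alternative gave no value for them.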
